A study of Mus musculus with 6 samples.

Results

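The genes described here encode the IL-7 receptor and the JAK-STAT5 pathway that it drives. They were chosen by name, and each of the 10 was found once among the 54752 genes of the RIP-seq data set. They are the receptor chains Il7r and Il2rg, the kinases Jak1 and Jak3, the transcription factors Stat5a and Stat5b, and the feedback regulators Socs1, Socs2, Socs3 and Cish. The data come from RNA immunoprecipitation with anti-FLAG, followed by poly-A RNA-seq. Non-adherent bone marrow cells of 2 adult tet-LIN28B mice and 1 littermate control, freed of red blood cells, were kept for 5 days in medium that held Dox and 20 ng/mL of IL-7, and an IP and an input were sequenced from each mouse, 6 libraries in all. tet-LIN28B mice carry 1 copy of a Dox-inducible, FLAG-tagged human Lin28b cDNA in the Col1a locus (Col1a tetO-LIN28B) together with the Rosa26 rtTA*m2 allele. The littermate control was heterozygous for Rosa26 rtTA*m2, had no tagged protein, and received the same Dox and IL-7. Its IP thus gives the background of the antibody and the beads. The labels give Dox at 0.1 mg/mL and the methods the same figure in µg/mL. In the sample descriptions, the fraction named at the end is not that of the title. The titles were followed, since the column names carry the same fractions. The titles and a figure legend of the study call both tet-LIN28B samples biological replicates, and the legend has them sequenced individually from 2 mice. The text of the study at one point calls them technical. They were taken as 2 mice here, and were they technical, the p-values would measure only technical spread.

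IL-7 holds together the IL-7 receptor alpha chain (Il7r) and the common gamma chain (Il2rg). JAK1 sits on the IL-7 receptor alpha chain and JAK3 on the common gamma chain, and together they phosphorylate STAT5A and STAT5B, which enter the nucleus and activate genes for survival and proliferation. Among the STAT5-induced genes are the SOCS proteins and CISH, which bind to the receptor or its kinases and turn the signal down. In mouse bone marrow, progenitors at the pro-B cell stage depend on this pathway, and the cultures here were grown on IL-7.

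Values are FPKM (fragments scaled by transcript length and by the mapped fragments of the library), which allow levels to be compared between genes. Each value is a share of its own library. An IP/input ratio below 1, or below that of the control, is thus a smaller share and not a smaller amount of RNA. The amount of RNA that each IP recovered is not known from these values. Depth is unknown, because the deposited values carry no counts. The transgene is a human cDNA, and whether its reads were counted for the mouse gene was not tested. Mouse Lin28b was at 0.62 and 1.03 FPKM in tet-LIN28B inputs and 0.01 FPKM in the control input. The FPKM sums of the 6 libraries ran from 1144870 to 1384940. B cell progenitor markers were present, with 13 of 13 at 1 FPKM or more on average over the inputs and summed levels of 11372 and 13896 FPKM in tet-LIN28B inputs and 14473 FPKM in the control input. Myeloid markers (8 of 8 at 1 FPKM or more) were also high, at 7429 and 4648 FPKM in tet-LIN28B inputs and 6397 FPKM in the control input. Summed T cell, NK cell, basophil and mast cell, erythroid and plasmacytoid dendritic cell markers lay between 12.4 and 158.8 FPKM in each input, and stromal markers at 0.06 FPKM or less. No marker of these lists was at 0 in all 3 inputs. In such bulk samples, fewer cells of a type and less RNA per cell cannot be told apart.

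The LIN28 proteins bind RNA through a cold shock domain and a pair of zinc knuckles, and the knuckles recognise GGAG in let-7 precursors. GGAG was therefore counted on the sense strand of 1 GENCODE M21 transcript model per gene. Overlapping matches would be counted separately, no other motif was searched, and 99.8% of the 10298 tested protein-coding genes with a model hold GGAG at least once. Below, 5 members are shown, namely the 2 with the highest IP/input relative to the control (Jak1 and Stat5b), the 2 called lower (Socs2 and Cish) and Il2rg. Il2rg was the lowest relative to the control when 1 FPKM was added to each value. For each, the coding window of 60 bases within 1 exon that holds the most GGAG is printed 5′ to 3′ on the strand of the gene, with GGAG in capitals, to show the letters that the counts refer to.
Jak1: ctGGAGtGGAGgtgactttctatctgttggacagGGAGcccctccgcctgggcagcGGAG
Stat5b: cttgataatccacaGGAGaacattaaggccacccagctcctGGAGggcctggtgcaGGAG
Socs2: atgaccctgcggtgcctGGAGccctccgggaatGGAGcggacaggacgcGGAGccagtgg
Cish: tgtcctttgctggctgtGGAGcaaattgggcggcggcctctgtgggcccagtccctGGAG
Il2rg: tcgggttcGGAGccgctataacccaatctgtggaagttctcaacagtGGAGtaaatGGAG

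These windows lie at chr4:101191520-101191579 (Jak1, exon 3 of 25, minus strand), chr11:100804954-100805013 (Stat5b, exon 3 of 19, minus strand), chr10:95414910-95414969 (Socs2, exon 2 of 3, minus strand), chr9:107299928-107299987 (Cish, exon 2 of 3, plus strand) and chrX:101266216-101266275 (Il2rg, exon 5 of 8, minus strand) of GRCm38. They hold 4 matches for Jak1, 3 each for Stat5b, Socs2 and Il2rg, and 2 for Cish. Of 284218 coding windows of this length, 36.7% hold at least 1 match, and 0.551%, 2.22% and 9.40% hold at least 4, 3 and 2. The printed windows are the richest of each gene, so these shares are only a scale. A match is not a binding site. Over the whole transcript model, GGAG occurred from 3.39 times per kb in Il7r to 12.1 times per kb in Socs3, against a median of 6.95 per kb over the 10298 genes. Jak1 and Stat5b had 7.75 and 7.67 per kb, above Cish with 6.32 and Socs2 with 5.40 but below Il2rg with 8.98. Across the 10298 genes, GGAG per kb had a Spearman rho of -0.01 and a Pearson r of 0.02 with the log2 IP/input of tet-LIN28B mice. With that of the control they were 0.09 and 0.08, and with tet-LIN28B minus control -0.06 and -0.02. Genes are not independent replicates, and the part of GGAG in the ratios of the members was not tested.

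In the inputs, Socs2 was the most abundant of the 10 transcripts. It had 197.4 and 200.3 FPKM in tet-LIN28B inputs and 229.2 FPKM in the control input. Il2rg followed at 55.4 and 62.9 FPKM in tet-LIN28B inputs and 67.7 FPKM in the control input, and Jak1 at 41.8 and 38.0 FPKM in tet-LIN28B inputs and 36.4 FPKM in the control input. Cish had 35.9 and 29.4 FPKM in tet-LIN28B inputs and 28.1 FPKM in the control input. Il7r itself had 28.0 and 18.4 FPKM in tet-LIN28B inputs and 35.9 FPKM in the control input, so that both tet-LIN28B inputs lay below the control and were also apart from each other. Socs1 had 26.8 and 21.2 FPKM in tet-LIN28B inputs and 28.2 FPKM in the control input. The 4 remaining members, Stat5b, Stat5a, Socs3 and Jak3, averaged 7.04, 5.83, 4.62 and 4.06 FPKM over the 3 inputs. In this order of levels, the ranges over the 3 inputs overlapped between the neighbours Cish and Il7r, Il7r and Socs1, Stat5a and Socs3, and Socs3 and Jak3. They did not overlap between the other neighbours, and between Stat5b and Stat5a only narrowly, with 6.41 FPKM as the lowest Stat5b value and 6.40 FPKM as the highest Stat5a value.

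The first comparison asked whether LIN28B induction went with another steady-state level of the pathway. None of the 10 members passed the test between the inputs (limma on log2(FPKM + 1), Benjamini-Hochberg over 12576 genes, adjusted p of 0.835 or more). Log2 differences, tet-LIN28B minus control, ran from -0.63 for Il7r (standard error 0.31) to 0.33 for Socs3 (standard error 0.22). Of all genes tested, 0% passed (0 of 12576), while 680 had an unadjusted p under 0.05, of which 0 were members. With 2 mice against 1, an exact permutation test of a single gene cannot go below p = 0.333, so this does not show equal levels.

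**Figure D1:**
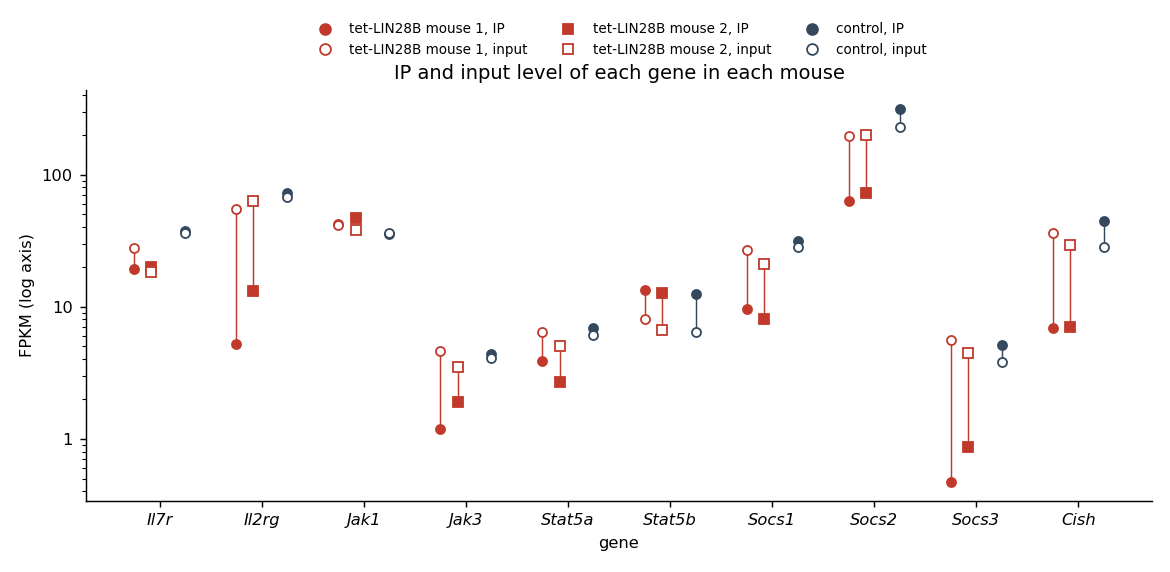
FPKM (log axis) of the 10 genes in each of the 6 libraries, with filled symbols for the IP and open symbols for the input of the same mouse, joined by a line, and tet-LIN28B mice left of the control. The IP lies far below the input for Il2rg, Socs1, Socs2, Socs3 and Cish in both tet-LIN28B mice and above the input for these genes in the control.

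The second comparison asked which of these transcripts were recovered with LIN28B. Transcripts of the feedback regulators and of Il2rg made up a smaller share of the LIN28B IPs than of their inputs. The ratios of Il7r and Jak1 lay near 1, and Stat5b was above its input. At an adjusted p under 0.05 (limma on log2((IP + 1)/(input + 1)), mean of both tet-LIN28B mice against 0), 6 of the 10 members were lower in the IP than their input level, against 31.0% of all genes tested, and 1 was higher, against 13.9%. All 10 were tested, because the filter asked only for a mean of 1 FPKM over the inputs. The IP/input ratio was under 0.5 in both tet-LIN28B mice for 5 members (24.9% of all genes) and in the control for 0 members (6.01% of all genes).

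Among the receptor chains, Il2rg had 5.20 and 13.1 FPKM in the tet-LIN28B IPs, from inputs of 55.4 and 62.9 FPKM, while in the control the IP had 73.0 FPKM and the input 67.7 FPKM. Its IP/input ratio was 0.151 ± 0.0809 (SD, n = 2) in tet-LIN28B mice, against 1.08 in the control. With 1 FPKM added to each value, this was the lowest log2 ratio of the 10 members, -2.68 (standard error 0.29, adjusted p = 0.00479 from limma), and both mice lay below the control. With nothing added, the mean ratio of Socs3 was lower, at 0.139. Il7r, in contrast, had 19.2 and 20.0 FPKM in the tet-LIN28B IPs, with ratios of 0.688 and 1.08, and 37.3 FPKM in the control IP, with a ratio of 1.04. The tet-LIN28B mice thus lay on both sides of the control, and the log2 ratio of -0.20 (standard error 0.22) did not pass the test (adjusted p = 0.480 from limma). The second mouse alone gave 0.11.

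Of the kinases, Jak1 had ratios of 1.01 and 1.23 in tet-LIN28B mice, against 0.974 in the control. Its IPs held 42.3 and 46.8 FPKM in tet-LIN28B mice and 35.4 FPKM in the control, and its log2 ratio of 0.16 (standard error 0.17) did not pass (adjusted p = 0.491 from limma). Jak3, the partner of the common gamma chain, had 1.18 and 1.91 FPKM in the tet-LIN28B IPs and 4.4 FPKM in the control IP. Its ratios were 0.257 and 0.543 in tet-LIN28B mice, against 1.08 in the control. Jak3 was lower in the IP (log2 ratio -1.0, standard error 0.27, adjusted p = 0.0406 from limma), a call that was lost with a pseudocount of 0.1 FPKM, with TPM scaling and after centring (adjusted p = 0.0591, 0.0560 and 0.0667 from limma).

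The STAT5 genes, which are close copies of each other, lay on opposite sides of their inputs in tet-LIN28B mice. Stat5a had 3.86 and 2.7 FPKM in the tet-LIN28B IPs and 6.92 FPKM in the control IP, with ratios of 0.603 and 0.540 in tet-LIN28B mice, against 1.14 in the control. Its log2 ratio of -0.65 (standard error 0.20) just missed the threshold (adjusted p = 0.0527 from limma). Stat5b had 13.4 and 12.6 FPKM in the tet-LIN28B IPs and 12.4 FPKM in the control IP. Its ratios were 1.66 and 1.90 in tet-LIN28B mice, against 1.93 in the control. The log2 ratio of Stat5b, 0.75 (standard error 0.18, adjusted p = 0.0308 from limma), was the only one of the 10 called higher, but in the control, which has no tagged protein, the ratio was no lower. The difference between Stat5a and Stat5b was not tested.

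How far reads can tell the 2 genes apart was read from their sequences. Their coding sequences (2382 and 2361 nt) were 90.7% identical over 2346 aligned bases, with a longest identical run of 324 bases. Of the 50-mers of the Stat5a model 16.4% occur in another gene (Stat5b or Stat3), and of those of Stat5b 11.8% occur in Stat5a. The coding stretch of 60 bases where they differ most, near the 3′ end of the coding sequence, is shown with the 19 differing bases in capitals.
Stat5a: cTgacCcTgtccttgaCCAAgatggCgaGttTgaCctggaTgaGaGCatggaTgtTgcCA
Stat5b: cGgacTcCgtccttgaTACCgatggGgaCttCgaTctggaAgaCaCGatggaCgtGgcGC

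The stretches lie at chr11:100883836-100883895 (Stat5a, exon 20, plus strand) and chr11:100783161-100783220 (Stat5b, exon 19, minus strand) of GRCm38. Most of both transcripts can thus be separated by reads, while the shared part was divided between the genes by the estimate of RSEM.

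All 4 feedback regulators were lower in the LIN28B IP. Cish, the first STAT5 target described as a feedback inhibitor of cytokine receptors, had 6.86 and 7.05 FPKM in the tet-LIN28B IPs and 44.8 FPKM in the control IP. Its ratio was 0.215 ± 0.0342 (SD, n = 2) in tet-LIN28B mice, against 1.59 in the control. Socs2, a substrate receptor of a ubiquitin ligase that acts on growth hormone and related receptors, had 62.8 and 72.1 FPKM in the tet-LIN28B IPs and 315.8 FPKM in the control IP. Its ratio was 0.339 ± 0.0296 (SD, n = 2) in tet-LIN28B mice, against 1.38 in the control. For both genes the tet-LIN28B mice lay well below the control, and the control IP lay above its own input.

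Socs1, a direct inhibitor of JAK kinases, had 9.66 and 8.10 FPKM in the tet-LIN28B IPs and 31.5 FPKM in the control IP. In tet-LIN28B mice the ratio was 0.371 ± 0.0148 (SD, n = 2), against 1.12 in the control. Socs3, an inhibitor of JAK kinases on receptors such as gp130, was low throughout, with 0.47 and 0.87 FPKM in the tet-LIN28B IPs and 5.16 FPKM in the control IP. Its ratio was 0.139 ± 0.0773 (SD, n = 2) in tet-LIN28B mice, against 1.36 in the control. The log2 ratios in tet-LIN28B mice were -1.34 for Socs1, -1.55 for Socs2, -1.86 for Socs3 and -2.08 for Cish, with adjusted p-values from limma of 0.00670, 0.00448, 0.00792 and 0.00351 in that order. At its low FPKM, the pseudocount of 1 holds back the log2 ratio of Socs3.

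**Figure D2:**
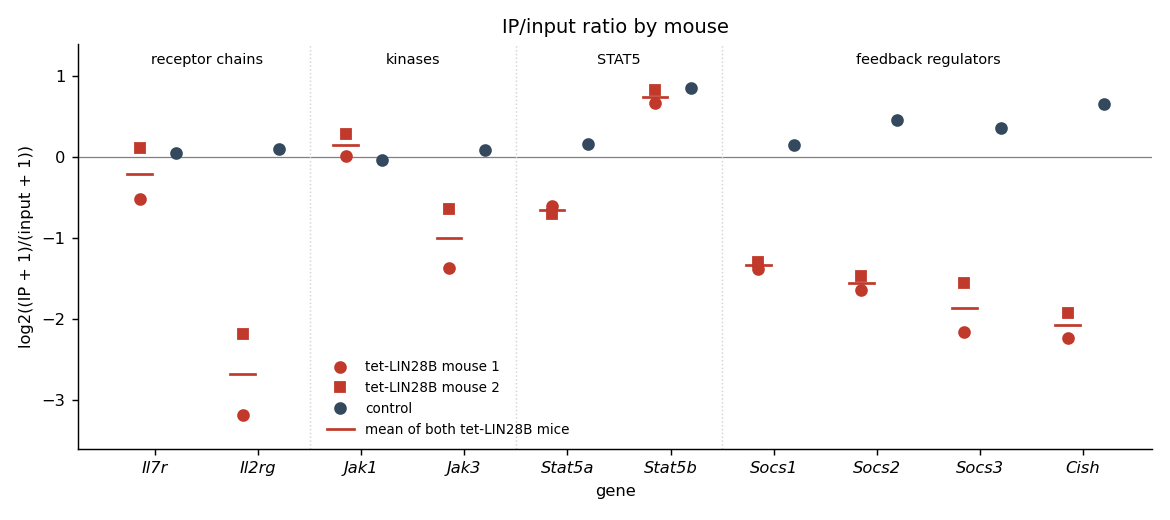
Log2((IP + 1)/(input + 1)) of each gene, with the 2 tet-LIN28B mice (circle and square, mean as a bar) left of the control (dark circle). The control lies between -0.04 and 0.85 for all 10 genes, while the mean of the tet-LIN28B mice lies between -2.68 for Il2rg and 0.75 for Stat5b.

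The third comparison set the ratios of the tet-LIN28B mice against that of the control, to separate recovery with LIN28B from background. In the control, the log2 ratios of the 10 members were between -0.04 (Jak1) and 0.85 (Stat5b), with a median of 0.16 against 0.04 over all genes. Both tet-LIN28B mice lay below the control for 8 of 10 members, against 60.0% of all genes. The exceptions were Il7r and Jak1. In the limma test, the ratios of Cish and Socs2 were lower than that of the control (log2 differences -2.73 and -2.01, standard errors 0.32 and 0.27, adjusted p = 0.0435 and 0.0474). These 2 of 10 members compare with 2.53% of all genes called lower, and 0 members compare with 0.382% called higher. The log2 difference of Il2rg was as large, -2.79, but its mice were farther apart (standard error 0.49, adjusted p = 0.0587 from limma). Socs3 at -2.22 and Socs1 at -1.49 also missed the threshold (adjusted p = 0.0670 and 0.0656 from limma). With an unadjusted p under 0.05 there were 5 members (Il2rg, Socs1, Socs2, Socs3 and Cish) and 3730 of all genes. Here too, 2 mice stand against 1, so an exact permutation test of a single gene cannot go below p = 0.333. The limma calls rest on 1 residual degree of freedom per gene and 3.56 prior degrees of freedom taken from all genes.

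These adjusted p-values lie near the threshold, and the calls moved with the filter. Among the 6347 genes whose inputs averaged 10 FPKM or more, where 6 members were tested, Il2rg, Socs1, Socs2 and Cish were all called lower (adjusted p = 0.0131, 0.0235, 0.0113 and 0.00764 from limma), against 17.8% of these genes. Without the trend of the spread on expression, without the mouse as a replicate block, or with a pseudocount of 0.1 FPKM, limma called 0 members and 0 genes. In each of these settings 5 members had an unadjusted p under 0.05, as did 3645, 3499 and 3425 of all 12576 genes in that order. After each mouse was centred on its median ratio, Cish was called (adjusted p = 0.0447) and Socs2 was not (adjusted p = 0.0539). The filter in the methods, 50 FPKM in the inputs and IPs of both tet-LIN28B mice, was passed by 1 of the 10 members, Socs2.

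The ratios of all genes were shifted between the genotypes. The median log2 difference over the 12576 genes was -0.39, and it was -1.29 over the 10 members. Relative to the median of all genes, Il2rg lay at -2.40, Cish at -2.34, Socs3 at -1.83, Socs2 at -1.62, Socs1 at -1.10, Jak3 at -0.70 and Stat5a at -0.42. Il7r (-0.26) and Stat5b (-0.10) lay below the control as deposited but at 0.13 and 0.29 above the median of all genes, so their direction depends on this scaling. Jak1 lay at 0.19 and, relative to the median, at 0.58. Only 2.32% of all genes had a lower difference than Il2rg and 2.46% a lower one than Cish, while 76.5% had a lower one than Jak1. By role, the median difference was -2.12 over the 4 feedback regulators and -0.54 over the 6 receptor, kinase and STAT genes.

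**Figure D3:**
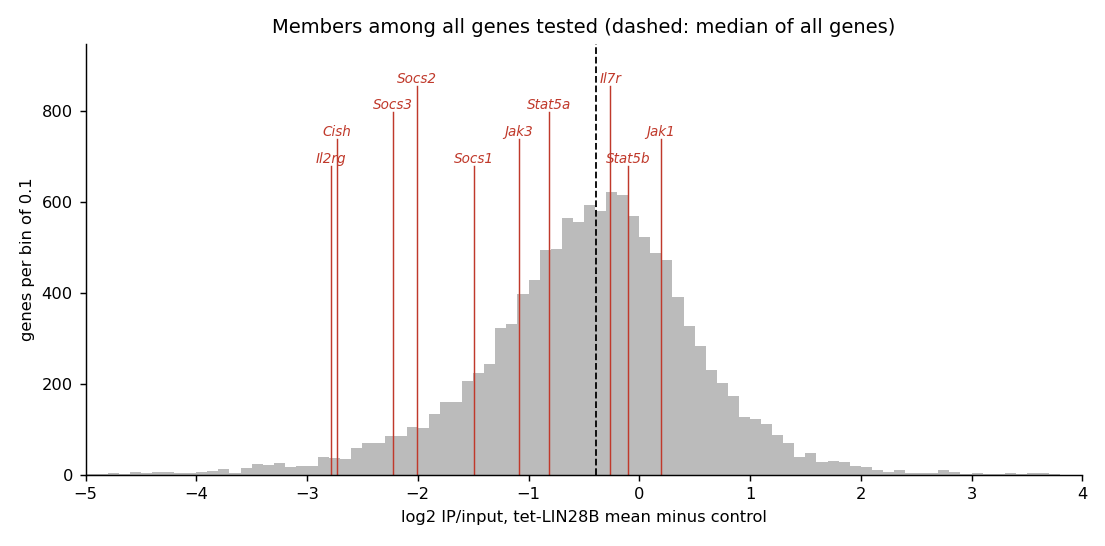
Number of genes per bin of 0.1 against the log2 IP/input difference, tet-LIN28B mean minus control, for all 12576 genes tested, with each member as a red line. The axis is limited to -5 to 4, which leaves out 60 genes. The dashed line is the median of all genes at -0.39, and members spread from Il2rg at -2.79 to Jak1 at 0.19.

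Myeloid markers were also lower in the IPs, at 2527 and 1670 FPKM in tet-LIN28B IPs and 2774 FPKM in the control IP, against the inputs given above. In the control, the summed myeloid markers thus made up a smaller share of the IP than of the input. The 4 feedback regulators and Il2rg lay above their inputs in the same library. Basophil and mast cell markers, in contrast, moved as the feedback regulators did, with 4 of 4 at 1 FPKM or more. Their sum was 23.3 and 25.5 FPKM in tet-LIN28B IPs and 93.9 FPKM in the control IP, from inputs of 65.2 and 55.6 FPKM in tet-LIN28B mice and 55.7 FPKM in the control. Erythroid markers (2 of 4 at 1 FPKM or more) were at 4.32 and 4.29 FPKM in tet-LIN28B IPs and 17.0 FPKM in the control IP, from inputs of 39.5 and 24.8 FPKM in tet-LIN28B mice and 12.4 FPKM in the control. NK cell markers (1 of 4 at 1 FPKM or more) summed to 3.97 and 1.32 FPKM in tet-LIN28B IPs and 10.9 FPKM in the control IP, from inputs of 43.2 and 17.3 FPKM in tet-LIN28B mice and 20.6 FPKM in the control. Plasmacytoid dendritic cell markers (3 of 3) summed to 63.5 and 55.7 FPKM in tet-LIN28B IPs and 117.2 FPKM in the control IP, from inputs of 134.3 and 158.8 FPKM in tet-LIN28B mice and 134.6 FPKM in the control. Both lists were thus below their inputs in all 3 IPs, and by more in tet-LIN28B mice. The part of these cells in the ratios of the members was not tested.

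GC content and length of the transcript moved with the ratios across all genes. Over the 10298 protein-coding genes, the difference from the control had a Spearman rho of -0.33 and a Pearson r of -0.31 with GC content, and of 0.17 and 0.13 with length. Genes were ordered by GC content and divided into 5 bins of about equal size. The bin with the highest GC content (55.7% to 76.5%) had a median difference of -0.81, and the bin with the lowest one (31.9% to 44.2%) of -0.06. Jak3, Stat5a, Socs1, Socs3 and Cish lay in the highest bin, with a GC content of 61.1%, 55.8%, 58.8%, 58.7% and 56.4%. Within that bin, 2.62% of genes had a lower difference than Cish, 7.43% a lower one than Socs3, 21.5% a lower one than Socs1, 35.2% a lower one than Jak3 and 49.7% a lower one than Stat5a. Socs2 (47.5% GC) and Il2rg (49.0% GC) lay in bins of lower GC content, where 1.70% and 0.728% of genes had a lower difference. Il7r, with 40.5%, had the lowest GC content of the members. In 5 bins by length, the longest one (4686 nt or more), with Jak1 and Stat5b, had a median log2 IP/input of 0.17 in tet-LIN28B mice. The bin of Il7r, Jak3 and Stat5a (3322 to 4684 nt) had -0.07, and that of Socs1, Socs3 and Cish (2401 to 3321 nt) -0.25. The bin of Il2rg and Socs2 (1577 to 2400 nt) had -0.52. From the longest of these bins to the shortest, the control ratio fell as well, with medians of 0.37, 0.18, 0.08 and -0.01. Medians of the difference were -0.23, -0.25, -0.36 and -0.51 by the same order of bins. Length had a Spearman rho of 0.42 and a Pearson r of 0.37 with the control ratio. For the tet-LIN28B ratio these were 0.36 and 0.31, so the trend with length was not particular to the LIN28B IPs. The part of GC content and length in the ratios of the members was not tested.

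**Figure D4:**
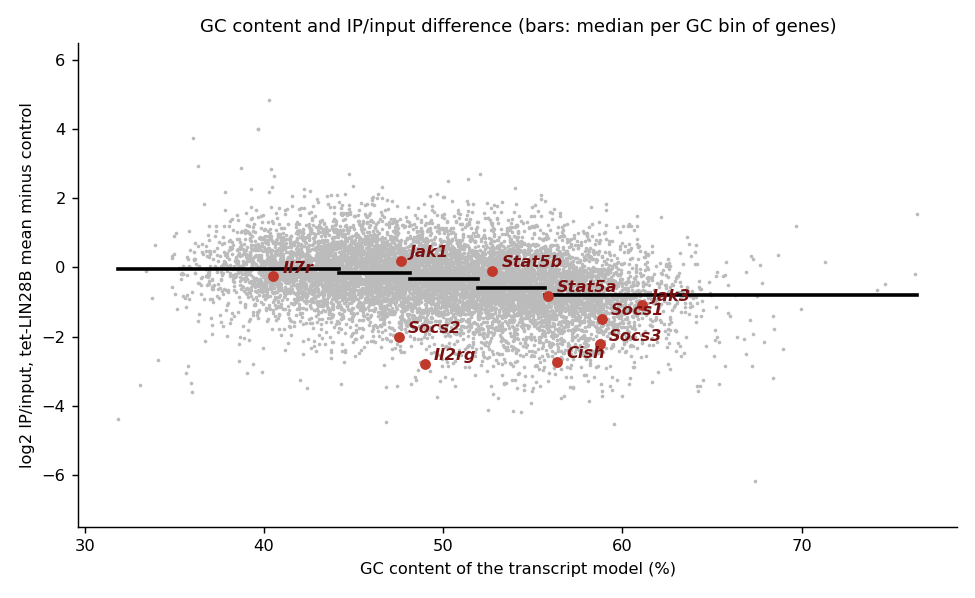
Log2 IP/input difference, tet-LIN28B mean minus control, against the GC content of the transcript model for 10298 protein-coding genes (grey points), with members in red and the median of each GC bin as a black bar. The medians run from -0.06 at low GC to -0.81 at high GC, and Il2rg, Socs2 and Cish lie far below the bar of their bin.

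Some members share sequence or position with other genes. Il2rg is an X-linked gene (chrX:101264378-101268255 of GRCm38, minus strand), and 42.0% of its 50-mers also belong to the overlapping model Gm20489, which is listed at 0 FPKM in all 6 libraries. Cish, on chromosome 9 from 107296026 to 107302784, overlaps Gm17040 and Gm17041 on the other strand, with which it shares 15.8% of its 50-mers. The library kit does not mark strand, so reads from the shared stretch cannot be told apart, while the other 50-mers of Cish occur in no other model. Gm17041 had 4.4 and 4.16 FPKM in the tet-LIN28B IPs and 16.4 FPKM in the control IP, with inputs of 12.7 and 11.8 FPKM in tet-LIN28B mice and 9.98 FPKM in the control. Jak3, on chromosome 8 from 71676296 to 71690575, shares 8.94% of its 50-mers with Insl3, which overlaps it on the same strand and had 1.63 and 2.58 FPKM in the tet-LIN28B IPs and 8.99 FPKM in the control IP. Stat5a overlaps Stat3 on the other strand, which had 20.9 and 26.3 FPKM in the tet-LIN28B IPs and 22.02 FPKM in the control IP. Of the 50-mers of Socs2, on chromosome 10 from 95385362 to 95417180, 18.4% occur in Gm8000 or Gm9847, both at 2.41 FPKM or less. Socs1, Socs3 and Jak1 shared 0% of their 50-mers with other genes, and Il7r 1.12%. The remaining loci are chr15:9505788-9530176 for Il7r, chr4:101152367-101265282 for Jak1, chr11:100859351-100885169 for Stat5a, chr11:100780731-100850724 for Stat5b, chr16:10782240-10785536 for Socs1 and chr11:117966079-117970047 for Socs3, which puts the STAT5 genes near each other on opposite strands.

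The pattern of Il7r over the 6 libraries, each value taken relative to the mean of the inputs of its gene, was closest to those of Mybpc2, Rasa4 and Gm12463, with root mean square differences of 0.07, 0.09 and 0.09 on the log2 scale. These genes averaged 1.17, 4.54 and 2.08 FPKM over the inputs, far below Il7r at 27.4 FPKM.

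Other genes of the pathway lay nearer to the median of all genes. Of 32 other receptor chains, kinases, STATs and regulators, 31 were tested, of which 3 passed as higher and 6 as lower for IP/input in tet-LIN28B mice (limma). Of all genes tested, 13.9% passed as higher and 31.0% as lower. Against the control, 0 passed in either direction, while 2.53% of all genes passed as lower and 0.382% as higher. The median difference was -0.45, close to that of all genes. The lowest differences were those of Pias3, a SUMO ligase that inhibits STAT3, at -1.57, and of Crlf2, the TSLP receptor chain that pairs with Il7r, at -1.42 (adjusted p = 0.0906 and 0.0904 from limma). Crlf2 had 6.08 and 5.21 FPKM in the tet-LIN28B IPs and 16.6 FPKM in the control IP. The highest were those of Stam, an adaptor that sorts ubiquitinated receptors, at 0.50, and of Socs4 at 0.49. Whether the rest of the SOCS family differed from Socs1, Socs2, Socs3 and Cish was not tested. Socs4, Socs5, Socs6 and Socs7, the last 3 of which were singled out after their values were seen, had ratios from 1.04 to 3.05 in tet-LIN28B mice and from 1.20 to 3.33 in the control.

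Of 18 genes known to respond to STAT5 or IL-7, all 18 were tested, of which 5 passed as higher and 6 as lower for IP/input in tet-LIN28B mice (limma). Relative to the control 1 was lower and 0 higher, against 2.53% and 0.382% of all genes, with a median difference of -0.17. The one called lower was Ccnd2, which encodes cyclin D2, with 143.5 and 163.4 FPKM in the tet-LIN28B IPs and 951.2 FPKM in the control IP (log2 difference -2.61, standard error 0.30, adjusted p = 0.0433 from limma). Rag2, a subunit of the V(D)J recombinase, followed at -1.24 (adjusted p = 0.0913 from limma). At the other end, Bcl6, a transcriptional repressor that STAT5 holds down, had ratios of 3.89 and 3.14 in tet-LIN28B mice, against 0.985 in the control, and Pim2, a survival kinase, ratios of 1.62 and 1.75 in tet-LIN28B mice, against 1.04 in the control. Their differences of 1.51 and 0.69 did not pass (adjusted p = 0.0864 and 0.184 from limma).

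**Figure D5:**
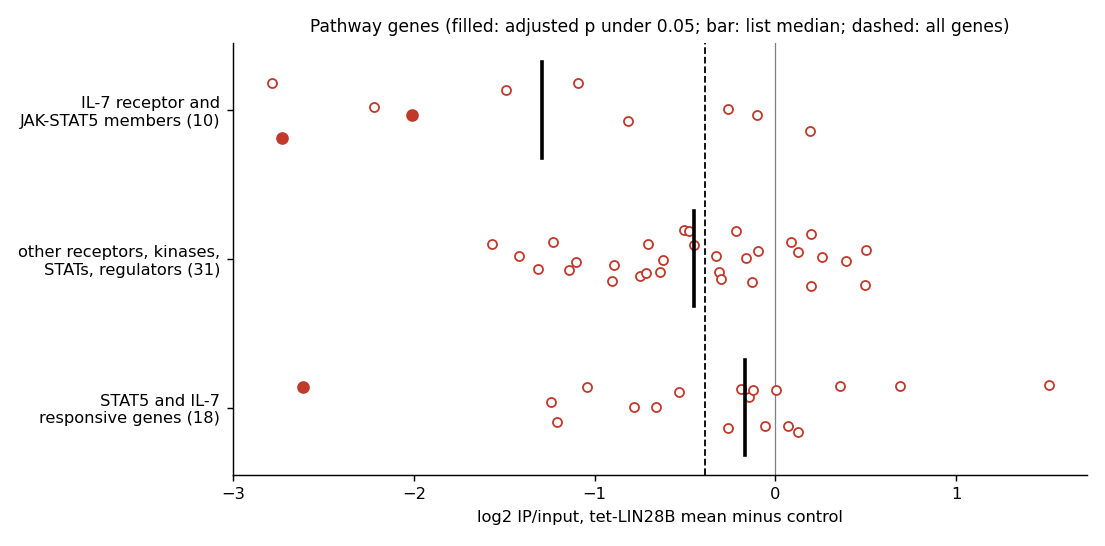
Log2 IP/input difference, tet-LIN28B mean minus control, for the 10 members, 31 other pathway genes and 18 STAT5 or IL-7 responsive genes, with filled points at an adjusted p under 0.05, list medians as black bars and the median of all genes as a dashed line. Cish, Socs2 and Ccnd2 are the filled points, and the list medians are -1.29, -0.45 and -0.17.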

How the data were processed

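RNA of anti-FLAG IPs and inputs was measured in 2 tet-LIN28B mice and 1 littermate control. The deposited FPKM were made by the authors with STAR 2.7.1 (alignment, mm10) and RSEM 1.28 (estimates per gene), and hold no counts and hence no depth. The sources used here do not name the annotation release. Samples were grouped by title. An input and an IP of one number were taken as one mouse, and the differences between both tet-LIN28B mice in input and in IP correlated at r = 0.13 across genes.

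Genes with a mean of at least 1 FPKM over the 3 inputs were tested (12576 of 54752). For each mouse log2((IP + 1)/(input + 1)) was fitted with limma 3.58.1 in R 4.3.3, with 1 residual degree of freedom per gene and a trend of the spread on mean expression. The ratio within each mouse acts as the replicate block. The spread of the single control was set equal to that of the other genotype. Inputs were compared on log2(FPKM + 1). p-values were adjusted by Benjamini-Hochberg, with a threshold of 0.05. The tests measure the spread between mice as shared over genes. They were tested on simulated data.

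The members and both pathway lists were chosen with earlier results of these data known. Named beyond the members were the 2 highest and 2 lowest genes of each list and the 3 genes most like Il7r. The overlapping genes and the remaining SOCS and receptor genes were named after their values were seen. Transcript models are those of GENCODE M21 (GRCm38), taking the principal isoform where one is marked, and 12515 of the 12576 genes matched by symbol. Stat5a and Stat5b were aligned with Biopython 1.88. Alternatives used another filter, pseudocount, scaling, trend or block, or left out a tet-LIN28B mouse.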

Additional observations from a re-analysis of the deposited data

Results flagged for a closer look

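An IP/input ratio that differed between tet-LIN28B mice and the control drew attention to Cish and Socs2. The log2 difference of Cish was -2.73 (adjusted p = 0.0435 from limma over 12576 genes) and that of Socs2 -2.01 (adjusted p = 0.0474), and both tet-LIN28B mice lay below the control for each gene. Over the alternatives that changed the filter, pseudocount, scaling, trend or block, the adjusted p ran from 0.00629 to 0.0941 for Cish and from 5.73e-10 to 0.0941 for Socs2. The lowest value of Socs2 came from the filter of 50 FPKM in both tet-LIN28B inputs and IPs, which Cish did not pass. Under it, 22.2% of 1460 genes were called lower and 23.2% higher. The next lowest adjusted p of Socs2 was 0.00851 from limma, with values above 0 in all libraries.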

How the results depend on the processing

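For the difference from the control, 366 genes were called, and 1430 where inputs averaged 10 FPKM or more, 663 with 50 FPKM in both tet-LIN28B inputs and IPs, 1759 with values above 0 in all libraries, 940 with a pseudocount of 5, 760 with TPM scaling, and 0 with a pseudocount of 0.1, without the trend and without the mouse as a replicate block. At an unadjusted p under 0.05 these last settings had 3425, 3645 and 3499 genes. The members called lower, 2 of 10, were 5 with values above 0 (9.56% of all genes called lower), 3 with TPM scaling (5.31%), 3 with a pseudocount of 5 (6.08%), 1 after centring on the median (1.49%), and 0 in the same 3 settings as above. Calls that were higher made up 13.1% for the difference and 31.0% for IP/input, against 51.1% and 50.5% with 50 FPKM in the 4 libraries, and 26.6% and 49.4% after centring. IP/input gave 5650 calls, and 1034 with 50 FPKM in the 4 libraries. The inputs gave 0 calls, and 18 with 10 FPKM, 5 with a pseudocount of 5, 4 with TPM scaling, 32 after centring and 4 with values above 0 in the inputs. After centring, Il7r changed sign for IP/input (0.10) and for the difference (0.0813), as did Stat5b for the difference (0.24). The input difference of Jak3 was 0.0236 with TPM scaling. Leaving out either tet-LIN28B mouse left no residual degree of freedom, so only values were obtained, which for Il7r ran from -0.52 to 0.11 (IP/input) and from -0.58 to 0.0528 (difference), and for the inputs from -0.17 to 0.14 (Jak3) and from -0.24 to 0.0638 (Stat5a). Where a call or sign changed, the cause was not tested. No depth is known, so what a low FPKM such as that of Socs3 can resolve is not known either.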

Other observations

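The receptor chains that share IL2RG or pair with IL7R were seen in the same libraries, and were looked at after their values had been seen. Of the 7 chains listed, Il9r did not reach a mean input of 1 FPKM. Il15ra had IP/input ratios of 0.281 and 0.470 in tet-LIN28B mice, against 1.02 in the control, and Il21r, the IL-21 receptor, ratios of 0.583 and 0.800 in tet-LIN28B mice, against 0.973 in the control. Il4ra, the IL-4 receptor, was at 0.929 and 1.04 in tet-LIN28B mice, against 1.74 in the control. Il2rb, the beta chain of the IL-2 and IL-15 receptors, had ratios of 0.632 and 0.678 in tet-LIN28B mice, against 0.917 in the control. Il2ra, which encodes CD25 and marks pre-B cells in mouse bone marrow, was at 0.954 and 0.905 in tet-LIN28B mice, against 0.805 in the control. Its input level was 5.27 and 5.5 FPKM in tet-LIN28B mice, against 12.8 FPKM in the control. This input difference (log2 -1.11, standard error 0.16) did not pass the test between the inputs (adjusted p = 0.593 from limma). None of these passed the limma test of the difference from the control.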
